A study of Mus musculus with 9 samples.

Results

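Heme biosynthesis and the uptake of the iron it needs were followed through 9 genes, chosen by name: the 8 enzyme genes Alas1, Alas2, Alad, Uros, Urod, Cpox, Ppox and Fech, and Tfrc, the transferrin receptor. All 9 were among the 27179 genes of the count table and all 9 passed the filter on low counts, which kept 16329 genes for testing. Poly(A) RNA was sequenced from whole mandibles, teeth included, of 5 wild type (WT) mice and 4 mice labelled FcγRIIB-/-, male C57BL/6 animals aged 6 months. FcγRIIB is the inhibitory receptor for IgG, and mice without it serve as a model of lupus with bone loss. The FcγRIIB-/- line carries its deletion in every cell, so marrow, bone, tooth and blood cells of a labelled FcγRIIB-/- mandible share the genotype, and the labels name no treatment of either group. Each library came from a separate mouse. The study sequenced the mandibles to ask which genes accompany bone loss in this model, and the comparison made here was FcγRIIB-/- over WT.

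Heme is built in a chain of steps that starts and ends in mitochondria. 5-aminolevulinate synthase makes the first intermediate, and it exists in a form used by cells of all kinds, ALAS1, and a form of red cell precursors, ALAS2, encoded on the X chromosome. The middle steps run in the cytosol, and the last ones return to the mitochondrion, where ferrochelatase places iron in the ring. Red cell precursors in bone marrow are the heaviest users of the pathway, since each fills with hemoglobin, and they draw their iron from transferrin through the transferrin receptor.

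Library depth ranged from 24158960 to 26787359 counts in WT and from 21453880 to 28991631 counts in the libraries labelled FcγRIIB-/-. Levels are given as CPM (counts per 1000000), the count of a gene relative to a library size normalised by the trimmed mean of M values. Fcgr2b, the deleted gene, did not set the labels apart: its level was between 17.0 and 38.3 CPM in WT and between 26.0 and 32.1 CPM in the other group. The log2 fold change of 0.21 (SE 0.20) did not pass edgeR's quasi-likelihood test (adjusted p = 0.442). Without WT mouse 2, the highest WT value, that change was 0.46 and passed as higher. Which exons those reads covered cannot be read from gene counts, so the groups are given as labelled, here and in every direction below. Marker lists of other cells were counted beside the 19.3% of all tested genes called lower and the 14.0% called higher. Genes called lower under the FcγRIIB-/- label, at an adjusted p under 0.05, were all 12 neutrophil genes, all 8 megakaryocyte genes, 9 of 10 B-lineage genes, 6 of 10 macrophage genes, 3 of 10 osteoblast genes, 1 of 8 T cell genes and 7 of 9 tested keratinized epithelium genes. Called higher were 7 of 10 skeletal muscle genes, 5 of 8 odontoblast and ameloblast genes and 1 keratinized epithelium gene. A gene not called can still have stood lower: the T cell log2 fold changes lay between -1.42 and -0.75. Several of these counts turned on single mice: odontoblast and ameloblast genes numbered 3 without WT mouse 1, FcγRIIB-/- mouse 3 or FcγRIIB-/- mouse 4, osteoblast genes 1 without WT mouse 3 and 2 without WT mouse 2 or 5 or any FcγRIIB-/- mouse, T cell genes 0 without WT mouse 2 or 5 or any FcγRIIB-/- mouse, and the higher keratinized gene was lost without WT mouse 2 or 4 or FcγRIIB-/- mouse 1, 2 or 3. Skeletal muscle genes numbered 5 without FcγRIIB-/- mouse 1 or 4 and 6 without WT mouse 3 or 5. They numbered 8 without FcγRIIB-/- mouse 2 or 3 and 9 without WT mouse 1. The summed level was 1199 to 3641 CPM in WT and 146 to 439 CPM in FcγRIIB-/- for the neutrophil list, 257 to 344 against 74.0 to 127 CPM for megakaryocytes, 48.5 to 117 against 15.3 to 34.7 CPM for B-lineage genes, and 7268 to 16982 against 17931 to 30999 CPM for muscle. The sums of the groups overlapped for T cell genes (11.5 to 63.4 in WT against 8.92 to 13.3 CPM), macrophage genes (434 to 649.9 against 367 to 459 CPM) and osteoblast genes (46192 to 67173 against 43390 to 53544 CPM). In whole tissue, fewer cells of a type and less RNA per cell cannot be told apart.

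Of the 9 genes, 6 had a lower level under the FcγRIIB-/- label and 0 a higher one at an adjusted p under 0.05 by edgeR's quasi-likelihood test. For comparison, 19.3% of all tested genes were called lower and 14.0% higher, 33.3% in all. The genes called lower were Alas2, Alad, Cpox, Ppox, Fech and Tfrc. Alas1, Uros and Urod did not pass the test. Every WT mouse lay above every FcγRIIB-/- mouse for 5 of the 9 genes, an ordering that 17.5% of all tested genes showed. Summed over the 9 genes, the level was 778 to 911 CPM in WT and 442 to 541 CPM in FcγRIIB-/-.

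**Figure D1:**
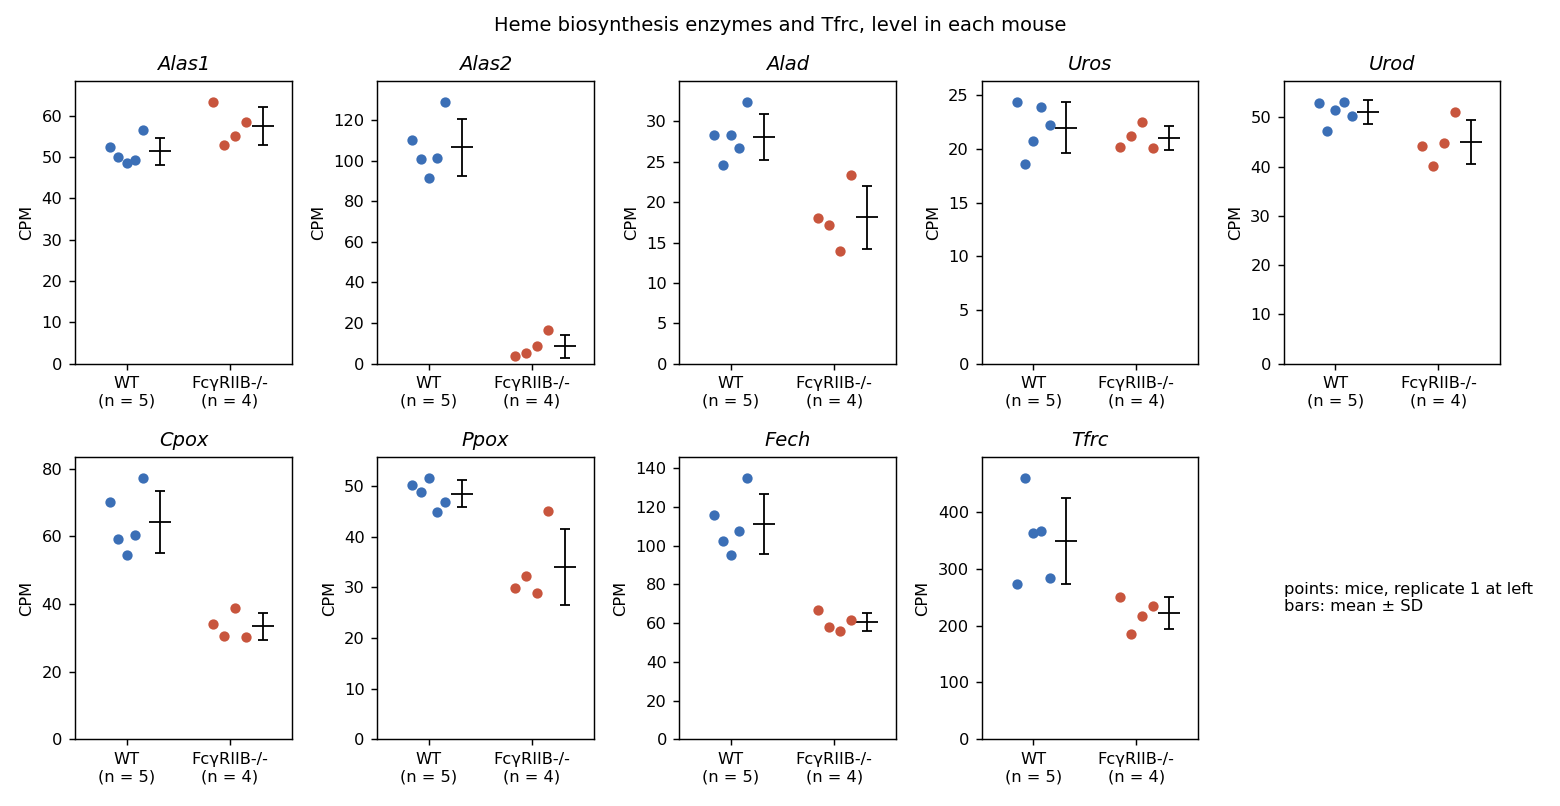
Level of each gene in CPM (y axis, from 0) in 5 WT and 4 FcγRIIB-/- mice; points are mice with replicate 1 at the left of its group, and bars give the mean ± SD. The groups stand apart for Alas2, Alad, Cpox, Fech and Tfrc, while FcγRIIB-/- mouse 4 reaches the WT range for Ppox at 45.2 CPM.

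Alas2, the erythroid enzyme of the first step, changed most of the 9. Its level was 110.4, 101, 91.3, 101 and 129 CPM in the WT mice. In the mice labelled FcγRIIB-/- it was 3.68, 5.45, 8.85 and 16.5 CPM. The lowest WT mouse thus stood far above the highest FcγRIIB-/- mouse, and the 4 FcγRIIB-/- mice differed among themselves more, in proportion, than the WT mice did. Behind these levels lay 2369 to 3301 reads in WT and 105 to 325 reads in FcγRIIB-/-. The mean fell from 106 ± 14.2 (SD, n = 5) to 8.61 ± 5.66 CPM (SD, n = 4), a log2 fold change of -3.65 (SE 0.36) or 12.5-fold lower (edgeR quasi-likelihood test, adjusted p = 1.75e-04). Counted from the lowest, its log2 fold change ranked 170 among the 16329 tested genes.

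Alas1, the form of the same enzyme made in cells of all kinds, did not pass the test. It stood at 52.4, 50.0, 48.5, 49.2 and 56.4 CPM in WT and at 63.3, 52.9, 55.1 and 58.5 CPM in the libraries labelled FcγRIIB-/-. The groups overlapped, and the log2 fold change was 0.16 (SE 0.07; edgeR, adjusted p = 0.102). Without WT mouse 5, the highest of its group, it was 0.22 and passed (edgeR, adjusted p = 0.0372).

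Because both forms were counted in the same library, their ratio depends little on how libraries were scaled, only through the prior count added to each. The log2 ratio of Alas2 to Alas1 CPM was 1.07, 1.01, 0.91, 1.04 and 1.19 in the WT mice. It was -4.08, -3.26, -2.63 and -1.82 in the FcγRIIB-/- mice, well below every WT mouse. The mean difference of -3.99 was a 15.9-fold change of the ratio, and the 2-sided exact permutation test over mice gave p = 0.0159, the smallest it can give for 5 against 4, and 0.0159 after adjustment over the 3 ratios tested. The levels of Alas2 and Alas1 given above already set the ratios of the groups apart, so the p-value adds no separate support.

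The RefSeq promoter windows of the genes (GRCm38.p6), from upstream of each start to just past it, differ in the letters they hold. They are shown for the 2 first-step genes, which moved apart, and for Cpox, a later enzyme that fell. Capitals mark, on either strand, words that GATA factors, the family of the erythroid regulator GATA1, can bind (GATA with A or T before it and A or G after it) in Alas2 and Cpox, and the NRF1 consensus word in Alas1. NRF1 is a factor of genes for respiration and other housekeeping work.
Alas2, chrX:150547167-150547466, plus strand: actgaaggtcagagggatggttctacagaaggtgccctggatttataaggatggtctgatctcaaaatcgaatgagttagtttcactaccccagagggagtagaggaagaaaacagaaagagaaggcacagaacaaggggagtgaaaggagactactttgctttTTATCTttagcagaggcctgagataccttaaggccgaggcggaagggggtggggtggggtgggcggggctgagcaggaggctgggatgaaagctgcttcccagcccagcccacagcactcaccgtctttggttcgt
Cpox, chr16:58669958-58670257, plus strand: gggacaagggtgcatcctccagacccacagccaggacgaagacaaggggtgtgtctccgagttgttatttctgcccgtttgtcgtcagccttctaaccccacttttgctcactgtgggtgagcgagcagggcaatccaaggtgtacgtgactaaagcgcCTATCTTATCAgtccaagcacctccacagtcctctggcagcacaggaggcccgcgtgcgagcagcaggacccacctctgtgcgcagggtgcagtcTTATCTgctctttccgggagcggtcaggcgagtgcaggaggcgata
Alas1, chr9:106247905-106248204, minus strand: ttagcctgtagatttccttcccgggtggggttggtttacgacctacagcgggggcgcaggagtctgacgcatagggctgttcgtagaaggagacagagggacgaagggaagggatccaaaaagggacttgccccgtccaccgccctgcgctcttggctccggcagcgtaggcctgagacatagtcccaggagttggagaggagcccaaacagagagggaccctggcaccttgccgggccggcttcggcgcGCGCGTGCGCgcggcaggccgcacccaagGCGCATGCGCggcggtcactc

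The Alas2 window held 1 GATA word, 86 bases before the start, and the Cpox window held 3, of which those at 91 and 86 bases before the start overlap each other. No GATA word was found in the outermost window of Alas1, Alad, Uros, Urod, Ppox or Tfrc. A second window of Uros (chr7:133702451-133702750, minus strand), at an inner start, held 2, at 205 and 68 bases before that start. Such a word occurred in 29.8% of all 32851 windows and in 14 of the 18 windows found for the erythroid gene list described below. The NRF1 word lay in 2 stretches of the Alas1 window, 1 of them a palindrome read on both strands, and in 1 stretch of the outermost Uros window, against 4.6% of all windows and 0 of 18 erythroid ones. A further word searched, CCNCNCCC with N any base, lay in 10 of 18 erythroid windows against 49.5% of all windows. It also lay in 6 of 6 outermost windows found for the enzymes made in cells of all kinds. A match is a run of letters only, and binding was not measured. An entry for Fech was missing from the promoter table.

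The cytosolic steps follow. Alad, aminolevulinate dehydratase, joins the first intermediates into a pyrrole. Its level was 28.3, 24.6, 28.3, 26.7 and 32.4 CPM in WT and 18.0, 17.2, 14.0 and 23.3 CPM in FcγRIIB-/-. The groups did not overlap, though FcγRIIB-/- mouse 4 came close to WT mouse 2. The log2 fold change was -0.63 (SE 0.14), 1.55-fold lower (edgeR, adjusted p = 0.00614).

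Uros and Urod, which close the ring and trim its side chains, did not pass. Uros was at 24.4, 18.6, 20.8, 23.9 and 22.3 CPM in WT and at 20.2, 21.2, 22.5 and 20.1 CPM in FcγRIIB-/-, so the FcγRIIB-/- mice lay inside the WT range. Its log2 fold change was -0.07 (SE 0.09; edgeR, adjusted p = 0.611). Urod was at 52.9, 47.3, 51.6, 53.1 and 50.2 CPM in WT and at 44.2, 40.2, 44.7 and 51.0 CPM in FcγRIIB-/-. In that gene 3 FcγRIIB-/- mice lay below all WT mice and mouse 4 did not. The Urod log2 fold change of -0.18 (SE 0.08) did not pass edgeR's test (adjusted p = 0.0869), but without FcγRIIB-/- mouse 4 it was -0.24 and passed (edgeR, adjusted p = 0.0253). Uros overlaps Bccip in the annotation, and Alas2 overlaps Apex2 and the microRNA gene Mir3620. The strand setting of the counting is not stated, so reads shared by such pairs cannot be told apart.

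The late mitochondrial enzymes Cpox, Ppox and Fech were all lower. Cpox, coproporphyrinogen oxidase, was at 70.0, 59.2, 54.4, 60.2 and 77.3 CPM in WT and at 34.0, 30.5, 38.8 and 30.2 CPM in FcγRIIB-/-. The log2 fold change was -0.94 (SE 0.12), 1.92-fold lower (edgeR, adjusted p = 5.16e-04). Fech, ferrochelatase, was at 116, 102, 94.9, 108 and 135 CPM in WT and at 66.5, 57.8, 55.8 and 61.4 CPM in FcγRIIB-/-. Neither gene had overlapping groups. The Fech log2 fold change was -0.88 (SE 0.10), 1.84-fold lower (edgeR, adjusted p = 3.97e-04).

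Ppox, protoporphyrinogen oxidase, acts between Cpox and Fech. Its level was 50.3, 48.8, 51.7, 44.9 and 46.8 CPM in WT and 30.0, 32.2, 29.0 and 45.2 CPM in FcγRIIB-/-. The first 3 FcγRIIB-/- mice lay well below WT, but FcγRIIB-/- mouse 4 was just above WT mouse 4. The log2 fold change was -0.51 (SE 0.12), 1.43-fold lower (edgeR, adjusted p = 0.0101), and -0.67 without FcγRIIB-/- mouse 4. Ppox (chr1:171276991-171281193, GRCm38.p6) is the one gene of the 9 on the chromosome of the deleted gene and lies 300.9 kb from Fcgr2b (chr1:170960558-170976071). Whether the interval around Fcgr2b comes from another strain in these mice was not tested.

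The 7 enzymes made in cells of all kinds among the 9 genes thus split, with 4 lower and 3 not called and a median log2 fold change of -0.51. Of all tested genes, 19.3% were called lower, and the median log2 fold change of all was 0.01. The remaining genes lie at chr9:106233455-106247954 (Alas1), chrX:150547417-150570622 (Alas2), chr4:62505984-62520063 (Alad), chr7:133686142-133710467 (Uros), chr4:116989965-116994436 (Urod), chr16:58670208-58680391 (Cpox), chr18:64456542-64489098 (Fech) and chr16:32608896-32632794 (Tfrc).

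**Figure D2:**
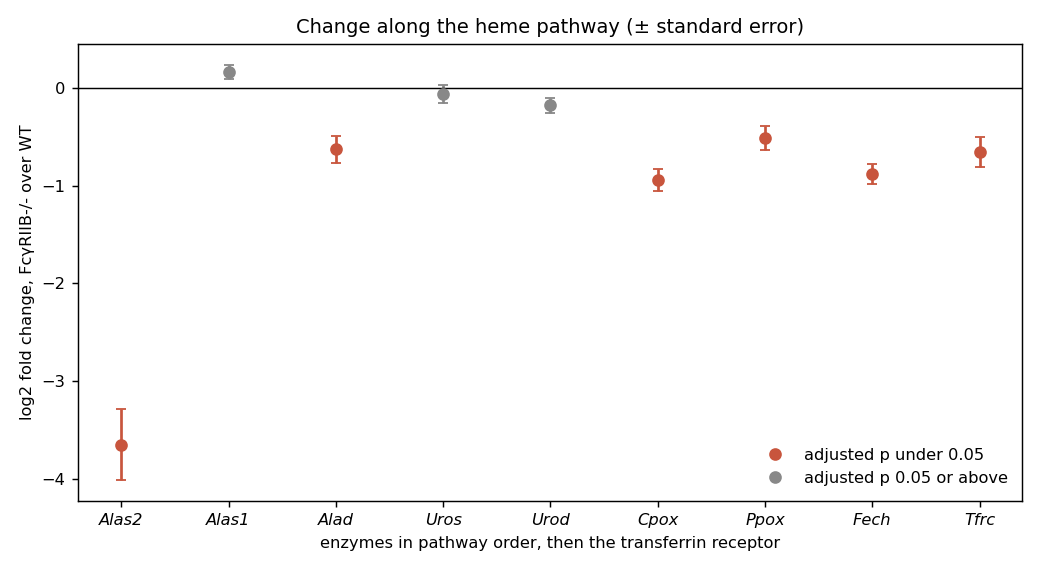
Log2 fold change of FcγRIIB-/- over WT with its standard error (y axis) for the 8 enzyme genes in pathway order and for Tfrc (x axis); red marks an adjusted p under 0.05. Alas2 lies at -3.65, the late mitochondrial enzymes Cpox, Ppox and Fech between -0.94 and -0.51, and Alas1, Uros and Urod near 0.

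Tfrc, the receptor that brings transferrin iron into cells, is used by red cell precursors and by dividing cells of other kinds. Its level was 273, 459.9, 362, 366 and 284 CPM in WT and 249.8, 184, 217 and 235 CPM in FcγRIIB-/-. The groups did not overlap, with WT mouse 1 and FcγRIIB-/- mouse 1 nearest to each other and WT mouse 2 far above the rest. The log2 fold change was -0.66 (SE 0.16), 1.58-fold lower (edgeR, adjusted p = 0.00982), and it lay between -0.72 and -0.52 when each mouse in turn was left out.

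The Tfrc and Alas2 messages share a feature that the choice of genes did not use. Both hold iron-responsive elements, hairpins bound by the iron regulatory proteins, which block translation from the 5′ untranslated region and guard the message from decay in the 3′ untranslated region. The untranslated regions of the longest coding GENCODE transcript of each gene (GRCm38) were searched for the hairpin. Its pattern was a C, a stem of 5 bases, the loop CAGTGN and 5 bases that pair with the stem. G with T was allowed as a pair, and the loop could not end in G. The hairpin was found in 108 of 21875 genes, 0.494%. Tfrc had 4 sites on the 3′ side and Alas2 had 1 on the 5′ side. They are printed with those of the iron exporter Slc40a1 and the ferritin chains Ftl1 and Fth1, all on the 5′ side, and capitals mark the loop.
Alas2, chrX:150547464-150547480, plus strand: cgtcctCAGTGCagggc
Tfrc, chr16:32631225-32631241, plus strand: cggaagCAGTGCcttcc
Tfrc, chr16:32631604-32631620, plus strand: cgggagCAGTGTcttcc
Tfrc, chr16:32631669-32631685, plus strand: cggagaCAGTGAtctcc
Tfrc, chr16:32631716-32631732, plus strand: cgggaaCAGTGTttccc
Slc40a1, chr1:45925471-45925487, minus strand: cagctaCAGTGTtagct
Ftl1, chr7:45459785-45459801, minus strand: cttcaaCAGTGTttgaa
Fth1, chr19:9982738-9982754, plus strand: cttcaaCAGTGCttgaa

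Fth1 and Slc40a1 were higher in the libraries labelled FcγRIIB-/-, with log2 fold changes of 0.46 and 0.38 (edgeR, adjusted p = 0.0389 and 0.0161), and Ftl1 at 0.27 did not pass. The call of Fth1 held under 8 of 17 alternative settings and was lost without WT mouse 1, 3, 4 or 5 or without FcγRIIB-/- mouse 2, 3 or 4, and neither gene passed when libraries were scaled by their totals alone. RNA counts carry no measure of the translation that the 5′ hairpins control.

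Genes of mitosis were also called lower, against a share of 19.3% among all tested genes. All 20 genes of a list of the mitotic cell cycle were lower in FcγRIIB-/-, with a median log2 fold change of -0.93, among them Mki67, the proliferation marker Ki-67, at -1.66 (edgeR, adjusted p = 1.40e-04). Their summed level was 560 to 896 CPM in WT and 258 to 367 CPM in FcγRIIB-/-. Left out singly, WT mouse 1, 4 or 5 or FcγRIIB-/- mouse 1, 3 or 4 took the count to 18 or 19: Ccnb1 lost its call without each of these, and Bub1 without WT mouse 4 or 5. Both the mitotic sum and Tfrc were lower in FcγRIIB-/-, while their order within the groups differed. The sum was highest in WT mouse 5 (896 CPM) and FcγRIIB-/- mouse 2 (367 CPM), where Tfrc stood at 284 and 184 CPM. So few mice per group cannot show whether the sum and Tfrc are linked. The order of the FcγRIIB-/- mice differed between the lists: mouse 4 was lowest of the 4 for 16 of the 20 mitotic genes and highest for 19 of the 22 erythroid genes. The part of cell division in the fall of Tfrc was not tested.

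Tfrc and Alas2 fell by different amounts. The log2 ratio of Tfrc to Alas2 CPM was 1.31, 2.19, 1.99, 1.85 and 1.14 in WT and 6.05, 5.06, 4.60 and 3.83 in FcγRIIB-/-. The groups did not overlap, and the mean difference of 3.19 was a 9.13-fold change (2-sided exact permutation test, p = 0.0159, adjusted 0.0159 over the 3 ratios). That p-value is the smallest the test can give. The levels of the 2 genes given above already set the ratios of the groups apart, so it adds no separate support.

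The erythroid context of Alas2 was read from a list of genes most abundant in red cell precursors, some of them also made elsewhere. Of its 25 genes, 22 were tested and 3 were not analysed here. All 22 were lower in FcγRIIB-/- with no overlap between the groups, against 19.3% of all tested genes called lower and 17.5% so ordered. The list had a median log2 fold change of -3.86 and a summed level of 2445 to 2906 CPM in WT and 235 to 668 CPM in FcγRIIB-/-. Hemgn, a nuclear protein of blood progenitors, fell by 4.84 on the log2 scale, Slc4a1, the band 3 anion exchanger of the red cell membrane, by 4.66, Rhag, of the Rh complex, by 4.51, and Epb42, the membrane skeleton protein 4.2, by 4.50 (edgeR, adjusted p between 1.62e-04 and 0.00185). Without FcγRIIB-/- mouse 4 the changes of Slc4a1, Rhag and Epb42 were -5.73, -5.37 and -5.22. In the FcγRIIB-/- mice Hemgn had 6 to 52 reads, Rhag 0 to 38 and Epb42 2 to 45. None of these genes had 10 counts in every mouse, so the size of their falls is uncertain. The smallest change of the list was that of Sptb, a spectrin chain also made outside red cells, at -1.12. Globin genes fell by 2.77 to 2.92 on the log2 scale, with Hba-a1 at -3.57 and Hba-a2 at -3.52 without FcγRIIB-/- mouse 4, and their near-identical copies make the split of reads between them uncertain. Alas2 at -3.65 thus lay inside the range of the list. The list median was -4.70 without FcγRIIB-/- mouse 4, where Alas2 was at -4.16, and -2.89 over the 13 genes with at least 10 counts in every mouse, where Alas2 was at -3.64.

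Alas2 was also set against Slc4a1 within each library. Slc4a1 was at 247, 228, 179.7, 213 and 309 CPM in WT. In FcγRIIB-/- it was at 0.596, 2.68, 10.2 and 24.5 CPM, from 17, 58, 240 and 484 reads. The FcγRIIB-/- mice thus spanned a wide range, with mouse 1 lowest and mouse 4 highest, as for Alas2. The log2 ratio of Alas2 to Slc4a1 CPM was between -1.26 and -0.98 in WT, and it was 2.48, 1.0, -0.20 and -0.57 in the FcγRIIB-/- mice. The mean difference of 1.81 was a 3.50-fold higher ratio in FcγRIIB-/- (2-sided exact permutation test, p = 0.0159, adjusted 0.0159 over the 3 ratios), and 1.21 without FcγRIIB-/- mouse 1, whose Slc4a1 count was lowest. Counting error of such small counts enters the ratio of that mouse most.

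**Figure D3:**
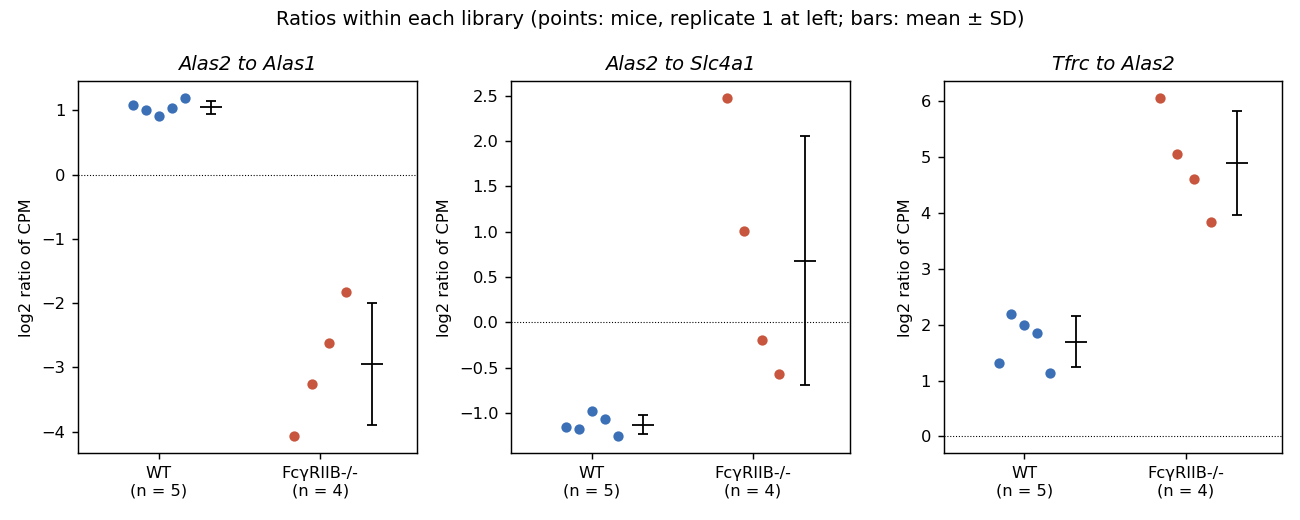
Log2 ratio of CPM within each library (y axis) for Alas2 to Alas1, Alas2 to Slc4a1 and Tfrc to Alas2 in 5 WT and 4 FcγRIIB-/- mice; points are mice with replicate 1 at the left, bars the mean ± SD. The groups are apart in each panel, and the FcγRIIB-/- mice spread from -0.57 to 2.48 for Alas2 to Slc4a1.

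Iron and heme must also cross the mitochondrial membranes. Of 12 genes of mitochondrial heme and iron transport, 4 were called lower and 0 higher, against 19.3% and 14.0% of all tested genes. The list median log2 fold change was -0.19. Slc25a37, mitoferrin 1, the iron importer of red cell precursors, fell by 1.41 on the log2 scale (144 ± 12 to 54.6 ± 11.5 CPM, SD, n = 5 and 4). Abcb10, a transporter of the inner membrane that stabilises mitoferrin 1, fell by 1.12, and Hebp1, a heme-binding protein, by 0.56 (edgeR, adjusted p at most 0.00331 for these 3). Tmem14c, a porphyrin carrier, was at -0.25 with an adjusted p of 0.0426 by edgeR, a call held under 6 of 17 alternative settings and, with single mice left out, only without WT mouse 3 or FcγRIIB-/- mouse 3. Slc25a28, mitoferrin 2, the form of other tissues, was at 0.10 and did not pass (edgeR, adjusted p = 0.507).

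Among 10 further genes of iron uptake, 3 were called lower and 2 higher, against 19.3% and 14.0% of all tested genes. Tfr2, a second transferrin receptor of liver and red cell precursors, fell by 1.28 on the log2 scale, Lrp1, a large endocytic receptor, by 0.62, and Exoc6, of the exocyst that recycles transferrin, by 0.54 (edgeR, adjusted p at most 0.00478). Trf, transferrin itself, rose by 0.53 and Snx3, a sorting nexin that returns the receptor to the surface, by 0.28 (edgeR, adjusted p = 0.0109 and 0.00701). These 5 calls held under all 17 alternative settings.

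Iron-sulfur cluster assembly, the other main use of mitochondrial iron, had no gene called lower. Of its 12 genes 0 were called lower and 6 higher, against 19.3% and 14.0% of all tested genes. The list median log2 fold change was 0.19, and 3 of its genes were called higher when libraries were scaled by their totals alone. The calls of Fdx1l, a ferredoxin, at 0.59, of Bola3 at 0.48 and of Iscu, the scaffold protein, at 0.34 held under all 17 settings (edgeR, adjusted p = 0.00231, 0.00302 and 0.0204), and those of Lyrm4, Fdxr and Nfu1 did not. Lyrm4 lost its call without FcγRIIB-/- mouse 2 or 4, Fdxr without WT mouse 1 or 4 or FcγRIIB-/- mouse 2 or 3, and Nfu1 without any one mouse other than WT mouse 5 and FcγRIIB-/- mouse 2.

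Of 13 genes of iron storage, export and sensing, 4 (30.8%) were called lower and 2 (15.4%) higher, against 19.3% and 14.0% of all tested genes. Those called higher were Fth1 and Slc40a1. Cp, ceruloplasmin, and Heph, hephaestin, the copper oxidases of iron export, fell by 1.15 and 0.70 on the log2 scale. Bach1, a repressor that heme inactivates, fell by 0.56, and Eif2ak1, the kinase that halts globin translation when heme is short, by 0.43 (edgeR, adjusted p at most 0.00348 for these 4). The Eif2ak1 level was 63.3 ± 2.48 CPM (SD, n = 5) in WT and 47.0 ± 0.795 CPM (SD, n = 4) in FcγRIIB-/-, a small shift with little spread.

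Of 11 genes of heme transport and breakdown, 4 were called lower and 1 higher, against 19.3% and 14.0% of all tested genes. Blvrb, a biliverdin reductase abundant in red cells, fell by 0.64 on the log2 scale, Lrp1, which is also the hemopexin receptor, by 0.62, and Abcg2, a heme exporter, by 0.36 (edgeR, adjusted p at most 0.00378). Slc48a1, a heme transporter of lysosomes, at -0.32 and Hmox2, the constitutive heme oxygenase, at 0.31 passed less firmly, under 9 and 12 of 17 alternative settings. With single mice left out, Slc48a1 passed only without WT mouse 3 or FcγRIIB-/- mouse 4, and Hmox2 lost its call without FcγRIIB-/- mouse 1, 3 or 4. Hmox1, the inducible heme oxygenase, was at -0.35 with an adjusted p of 0.190 by edgeR.

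**Figure D4:**
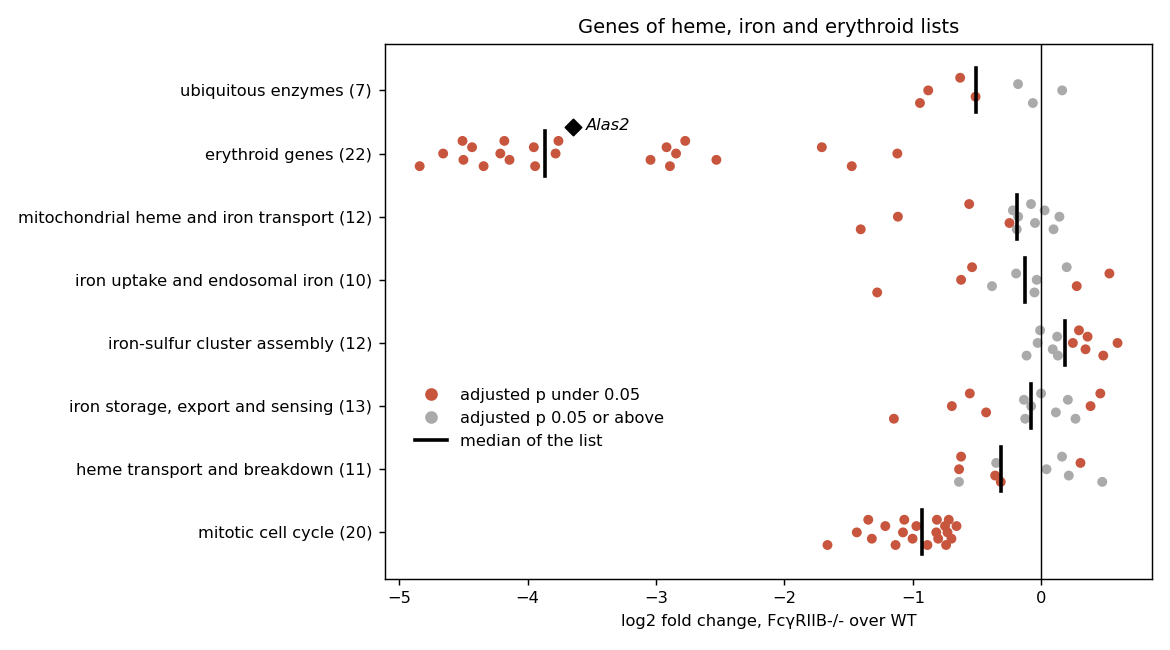
Log2 fold change of FcγRIIB-/- over WT (x axis) for each gene of 8 lists (rows, with the number of genes tested); red points have an adjusted p under 0.05, black bars give the list median and the diamond marks Alas2. The erythroid list has its median at -3.86 and the mitotic list at -0.93, and the iron-sulfur list lies at 0.19.

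Levels can be set side by side between genes only per length of transcript. In RPKM, which is CPM per kilobase of the longest coding transcript, WT mandibles ranked Tfrc first with a level of 71.4 and Alas2 next with 52.3, and their ranges over mice overlapped. Urod followed at 34.3 RPKM, apart from its neighbours on both sides. Ppox at 26.6, Alad at 22.5, Cpox at 20.7, Fech at 16.9 and Alas1 at 15.1 RPKM each overlapped the next, and Uros stood apart at the bottom at 12.5 RPKM. In the libraries labelled FcγRIIB-/- the order was Tfrc at 45.3, Urod at 30.2, Ppox at 18.7, Alas1 at 16.9, Alad at 14.5, Uros at 11.9, Cpox at 10.8, Fech at 9.19 and Alas2 at 4.23 RPKM. Alas2 moved from the second rank to the last. Its range was apart from that of Fech on this scale and overlapped it when merged exon lengths were used.

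The genes whose levels over the 9 mice ran closest to those of 3 of the genes were sought among 12788 genes, by the root mean square difference of log2 CPM after centring. Nearest to Alas2 were the Rh blood group gene Rhd at 0.25, Hbb-bs at 0.37, Kel at 0.38, Hba-a2 at 0.44 and Hba-a1 at 0.47. Nearest to Fech were Cdca8 at 0.06, Dchs1 at 0.10, Tbc1d2b at 0.10, Ncapd2 at 0.10 and Nhsl2 at 0.10, and nearest to Tfrc were Cxcl12 at 0.16, Cpxm1 at 0.17, Adcy7 at 0.17, Ncald at 0.17 and Sp110 at 0.18. Thus the neighbours of Alas2 were red cell genes, and those of Fech included Cdca8 and Ncapd2, which act in mitosis, beside Dchs1, Tbc1d2b and Nhsl2. All 5 neighbours of Fech had log2 fold changes between -0.92 and -0.80, close to that of Fech at -0.88. The shift between the groups thus enters their nearness, and a link of Fech to mitosis was not tested. The measure is a description over 9 mice in 2 groups that differ for most of these genes.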

How the data were processed

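Libraries of poly(A) RNA were prepared with a directional kit from whole mandibles of 5 WT and 4 FcγRIIB-/- mice. Per the labels and the study's methods, the authors used Trim Galore for trimming, HISAT 02.1.0 for mapping to mm10 and featureCounts for assigning reads to genes, and deposited raw counts; the annotation and strand setting are not given in the sources used here. Groups came from the labels, which name no batch, and 1 count column that matched no sample was left out. Its name continues the series of the FcγRIIB-/- columns, but no label gives its group.

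Counts were filtered with filterByExpr (minimum count 10), normalised by the trimmed mean of M values and tested with edgeR 4.0.16 (quasi-likelihood, R 4.3.3, no covariate), with Benjamini-Hochberg adjustment over 16329 genes and a threshold of 0.05. SE was taken as the size of the log2 fold change divided by the root of its F statistic. CPM used effective library sizes and log2 CPM a prior count of 2. Ratios used an exact permutation test over the mice. Positions came from RefSeq (GRCm38.p6). Alternatives were DESeq2 1.42.0, other scalings and filters, a replicate block, each mouse left out and, chosen after seeing the data, WT mice 2 and 5 left out together. The 9 genes, the lists and the tests were chosen with earlier results of these data known. From each list at most the 4 largest changes in each direction were named; Slc25a28, Hmox1, Ftl1, Sptb, Fdxr, Nfu1, the globins, Mki67, Ccnb1 and Bub1 were named after their values were seen. One item is not reported here. The test was checked on simulated data with 200 genes changed by 1 on the log2 scale. There edgeR recovered 74.5% of them, with 4.49% of its calls on unchanged genes. DESeq2 recovered 80.0%, with 17.9% of its calls on unchanged genes. The simulation held 16201 genes, and as many of the 200 were raised as lowered. In the mice 33.3% of tested genes were called, more of them lower than higher. The simulation therefore does not show how either tool performs under so broad and uneven a shift. Within each group no libraries were alike within counting error, the smallest chi-square per gene being 12.5.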

Additional observations from a re-analysis of the deposited data

How the results depend on the processing

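Under 17 alternative settings, 150 of 153 fold changes of the 9 genes kept their direction and their side of the threshold, 3 newly passed and 0 lost the call or reversed. The 3 were Alas1 without WT mouse 5 and Urod without FcγRIIB-/- mouse 4, given above, and Urod at -0.26 with scaling by library totals alone. The number of the 9 genes called lower was 6 or 7, and the number called higher lay between 0 and 1 when each mouse was left out, the 1 being Alas1 without WT mouse 5.

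The difference in the log2 ratio ranged, leaving out each mouse, from -4.36 to -3.61 for Alas2 to Alas1, from 1.21 to 2.22 for Alas2 to Slc4a1 and from 2.80 to 3.54 for Tfrc to Alas2. With mice paired by replicate number, a replicate block, the differences were -3.95, 1.77 and 3.05 (exact p = 0.125), and without WT mice 2 and 5 together they were -3.95, 1.75 and 3.17 (exact p = 0.0571). Those p-values are the smallest that 4 pairs and 4 against 3 mice allow. Same-numbered mice are different animals, whose deviations from their group means correlated between -0.11 and 0.10 across genes, so the block pairs by number only. It gave 2410 genes lower and 1594 higher, against 3144 and 2289.

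Scaling by library totals alone gave 3781 lower and 1309 higher genes, which raised the lower share of calls from 57.9% to 74.3%, and leaving out WT mice 2 and 5 gave 2066 lower and 1479 higher. Requiring 10 counts in every mouse left 13 of the 22 erythroid genes. Depth limits genes with few counts, such as Slc4a1 with 17 reads in FcγRIIB-/- mouse 1. Annotation, strand and cell composition were not resolved by these counts.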
